A study of Mus musculus with 8 samples.

Results

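CT2 is one of the connective tissue (CT) classes that the deposited cell annotation gives for the petrous temporal bone (PTB), the skull bone that encloses the inner ear and, in the mouse, holds the paraflocculus in a pit called the subarcuate fossa. Its members were the nuclei whose cell type was CT2 in that annotation, matched by library and barcode to the raw matrices of unique molecular identifiers (UMIs). There were 1098 such nuclei among 31076 annotated PTB nuclei of 15 types, and 79313 annotated nuclei in the whole series, which also covers the paraflocculus/flocculus (PF/F) of the cerebellum. CT2 was labelled a connective tissue class, and its 2 markers, Col3a1 and Gpc3, were present. Of the 25 genes that stood furthest above the other PTB types, 9 were solute carriers. Including 3 of these, 4 belonged to a list of meningeal fibroblast genes written with earlier results of these data known.

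The study profiled single nuclei at postnatal day (P) 5.5 from wild-type (WT) mice and from Tbx1+/- littermates, which carry 1 functional copy of Tbx1, a T-box transcription factor gene of the 22q11.2 deletion region. Each genotype was sampled in 4 libraries, 2 of PTB and 2 of PF/F tissue, and each PTB library held bone from a pool of 5 mice of both sexes, taken in separate batches of animals. The Tbx1 allele is germline, so every cell of a Tbx1+/- mouse carried it. The libraries are called WT 1, WT 2, Tbx1+/- 1 and Tbx1+/- 2, and pools of a genotype are the replicates.

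Connective tissue of the skull is laid down by fibroblasts that secrete collagens and proteoglycans, among them type III collagen, the product of Col3a1, and the heparan sulfate proteoglycan glypican 3, the product of Gpc3. On its inner side the petrous bone borders the meninges, the fibroblast layers around the brain. Meningeal fibroblasts are known for Foxc1 and Zic transcription factors, for retinoic acid synthesis and for transporters that move amino acids, organic anions and cations between blood, cerebrospinal fluid and brain.

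CT2 supplied 272 of 9977 annotated nuclei in WT 1, 267 of 5981 in WT 2, 300 of 8704 in Tbx1+/- 1 and 259 of 6414 in Tbx1+/- 2. The UMIs of these nuclei summed to between 1205406 and 1420636 per library, and the median nucleus held 3752 to 4449 UMIs, against 3858 to 4781.5 in the other annotated nuclei. Mitochondrial genes took 0.662% to 1.47% of CT2 UMIs. No barcode was shared between CT2 nuclei of different libraries (0 cases), and 106 barcodes occurred in more than 1 PTB library over all annotated nuclei. Levels are given as CPM, the UMIs of a gene per 1000000 UMIs of the summed nuclei of a library, and as mean ± SD over n = 4 PTB libraries unless stated. Comparisons of CT2 with other types are descriptions without a test, since the same genes defined the clusters. The 15 annotated PTB types were connective tissue, chondrocyte progenitor, chondrocyte, osteoblast and osteoclast classes. Endothelial, epithelial and muscle nuclei had no class among them, so highest in CT2 means highest of these 15 types. RNA released from other cells can be captured along with a nucleus, so the level in osteoclasts, a blood-derived lineage, is given as a background.

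The named markers were high in CT2, though neither set CT2 apart from CT1, the largest CT class. Col3a1 measured 1464 CPM in WT 1, 700.1 in WT 2, 974 in Tbx1+/- 1 and 889 in Tbx1+/- 2 (1007 ± 326). CT1 was higher in every library (mean 1693 CPM), and osteoclasts reached 529.9 CPM. Gpc3 measured 842, 526, 692 and 696 CPM in the same order (689 ± 129). It was highest in CT2 in 3 of 4 libraries, with CT1 next at 539 CPM and osteoclasts at 46.1 to 73.2 CPM. Relative to all other annotated nuclei, the level of Col3a1 in CT2 was 0.79 higher on the log2 scale (SD 0.41) and that of Gpc3 was 1.88 higher (SD 0.24). Vcan, which encodes versican, a large matrix proteoglycan and the other CT marker shown by the study, was at 242 ± 74.7 CPM in CT2 against 1524 CPM in CT1.

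Solute carriers led the genes by which CT2 stood above the other types. Among 7989 genes at a mean of 20 CPM or more in CT2, 269 (3.37%) were highest in CT2 in all 4 libraries. Of the 139 Slc genes in that set (1.74% of it), 29 were highest in CT2 in all 4 libraries (20.9%). The 25 leading genes were those with the largest log2 difference from the highest other type, taking the library where it was smallest. They held 9 Slc genes (36%). The last gene inside this list was Kcnt1 and the first outside it was the predicted gene Gm5860, both at a smallest log2 difference of 2.30.

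Amino acid and osmolyte transporters stood first. Slc6a20a, a transporter of proline and other imino acids, measured 382 CPM in WT 1, 719.9 in WT 2, 586 in Tbx1+/- 1 and 767 in Tbx1+/- 2 (614 ± 172), and the next type, osteoclasts, averaged 7.62 CPM. Slc6a13, a transporter of GABA and taurine, measured 256, 402, 332 and 500.1 CPM (373 ± 104), with CP6, a chondrocyte progenitor (CP) class, next at 11.8 CPM. Slc6a12, a betaine and GABA transporter, was at 43.6 ± 15.4 CPM against 1.25 CPM in CP6. All 3 genes were lowest in WT 1 and highest in Tbx1+/- 2, so the libraries of a genotype differed by more than the genotypes did. Each Tbx1+/- library was above the WT library of the same number for all 3 genes, but the labels do not state that same-numbered pools shared a batch. Their log2 differences, Tbx1+/- minus WT, were 0.29 (SE 0.30), 0.33 (SE 0.28) and 0.46 (SE 0.36), and none was called between genotypes.

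Transporters of organic ions and bicarbonate followed. Slc47a1, which exports organic cations in exchange for protons, measured 387, 346, 349.8 and 372 CPM (364 ± 19.2), against 33.6 CPM in CP2. Slc22a8, an organic anion transporter, measured 140.2, 165, 125 and 195 CPM (157 ± 30.7), against 12.3 CPM in CP3. Slc4a10, a sodium-dependent bicarbonate transporter, measured 943, 1281, 1067 and 1035 CPM (1082 ± 143), against 137 CPM in CP4. Osteoclasts stayed at or under 18.8 CPM for each of these 3 genes. The remaining Slc genes among the 25 were Slc16a9 (255 ± 17.7 CPM), Slc16a12 (47.2 ± 10.7 CPM) and Slc16a11 (45.4 ± 19.2 CPM), all of the monocarboxylate transporter family.

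The other leading genes coded for secreted, nuclear and membrane proteins. Ptgds, prostaglandin D2 synthase and an abundant protein of cerebrospinal fluid, measured 3019.7 CPM in WT 1, 4141 in WT 2, 2153 in Tbx1+/- 1 and 4657 in Tbx1+/- 2. The next type was CP3 at 407 CPM, and osteoclasts reached 239.9 CPM, a background that CT2 exceeded in every library. Vitronectin (Vtn, 66.1 ± 28.8 CPM) and the hyaluronan-binding protein gene Itih2 (123 ± 17.4 CPM) were the other secreted products. Rnf220, a ubiquitin ligase, was at 580.2 ± 122 CPM and Sidt1, a transmembrane protein, at 764 ± 147 CPM, against 51.6 and 99.7 CPM in the next type. Aifm3 (122 ± 41.5 CPM, next type 5.95 CPM), Zkscan2, Ankfn1, Dcdc2a, Mro, Kcnt1 and the predicted gene Gm12830 completed the genes annotated as protein-coding, at 51.0 to 257 CPM.

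**Figure D1:**
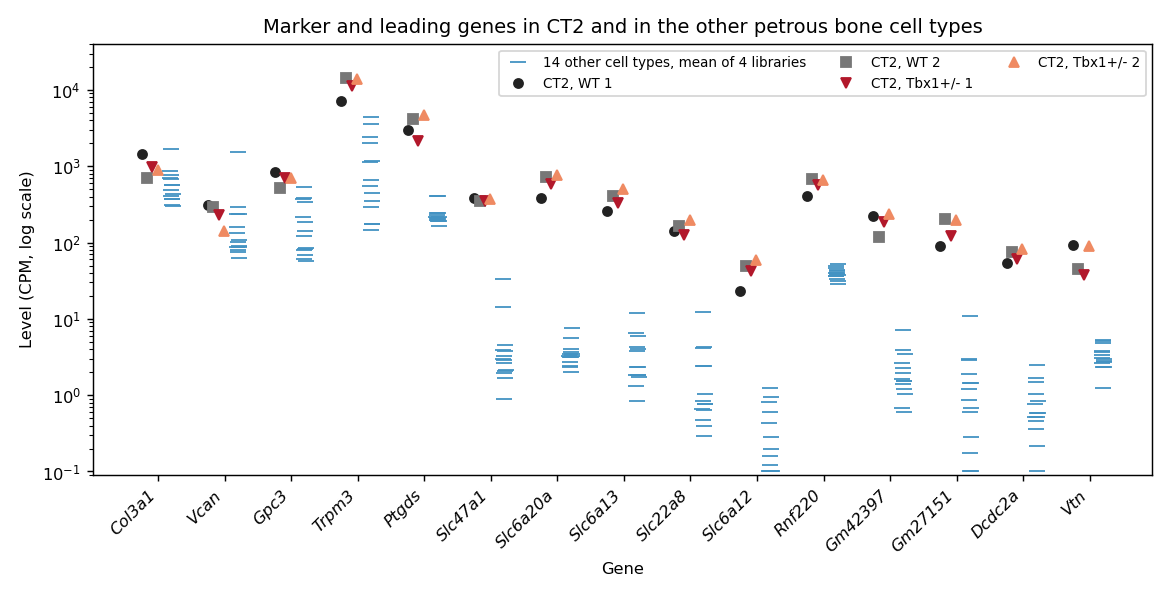
Levels of 3 CT marker genes, Trpm3, Ptgds and 10 other leading genes, in CPM on a log axis. Large symbols are the CT2 sums of the 4 PTB libraries, and blue dashes are the 14 other PTB types as means of the 4 libraries, with means under 0.1 CPM drawn at 0.1. Col3a1 and Vcan of CT2 lie within the range of the other types, while every CT2 point of Slc47a1, Slc6a20a, Slc6a13, Slc22a8 and Slc6a12 lies above all of their dashes.

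Several of these genes lie beside a relative on the chromosome that was also highest in CT2. Positions are on mouse build GRCm38 with GENCODE release vM21 genes. Slc6a13 (chr6:121300227-121337733) and Slc6a12 (chr6:121343076-121365775) are on the same strand with 5342 bases between them. Slc6a20a (chr9:123634770-123678885) lies 2204 bases from Slc6a20b, which was at 86.6 ± 32.4 CPM. Slc47a1 (chr11:61343401-61378345) lies 540 bases from Slc47a2, at 82.0 ± 8.48 CPM, and Slc22a8 (chr19:8591254-8611835) lies 6203 bases from Slc22a6, at 91.3 ± 18.6 CPM. Each of these neighbours was highest in CT2 in 4 of 4 libraries. How reads of such close relatives were divided between them was not tested, so the split between partners is uncertain. Slc6a20b, Slc47a2 and the neighbours named in the next paragraph were chosen for their position after the values were seen.

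The remaining leading genes, known by systematic names, also overlap or neighbour a gene highest in CT2. Gm27151 (152 ± 55.3 CPM) lies inside Trpm3, a cation channel gene, on the opposite strand. Trpm3 measured 7236, 14358, 11115 and 14003 CPM and was highest in CT2 in all 4 libraries, with CP6 next at 4386 CPM. Gm42397 (191 ± 52.7 CPM) and Gm39033 (25.2 ± 4.76 CPM) lie 23701 bases apart on chromosome 7. Gm12830 and 9130410C08Rik overlap on opposite strands of chromosome 4, and the start of 9130410C08Rik lies 3422 bases from the forkhead gene Foxd2, which was at 11.7 ± 3.20 CPM and highest in CT2 in 4 of 4 libraries. Overlapping transcripts share reads where the strand is misassigned, so the levels of Gm27151, Gm12830 and 9130410C08Rik are uncertain.

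The list of 14 meningeal fibroblast genes was the cell type list with the largest share of its members highest in CT2. Of its members, 10 were highest in CT2 in all 4 libraries and 13 were above the other annotated nuclei in all 4, beside 3.37% and 25.1% of the 7989 genes. The lists also hold genes under 20 CPM, which those shares leave out. The median log2 difference from the other nuclei was 2.63, against -0.03 over all 7989 genes. Summed over the list, CT2 measured 5503 CPM in WT 1, 7528 in WT 2, 4705 in Tbx1+/- 1 and 7878 in Tbx1+/- 2. The other annotated nuclei summed to 641 to 846 CPM and osteoclasts to 314 to 421 CPM, and the highest value outside CT2 was 2682 CPM in CP3. Ptgds alone supplied 3019.7, 4141, 2153 and 4657 CPM of the CT2 sums, so the gap to CP3 rested largely on that gene. Slc6a13, Slc22a8, Slc47a1 and Ptgds of the leading genes are members of this list, which was written with earlier results of these data known, as is their neighbour Slc22a6.

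Other members of the list lay closer to the next type. Zic1 measured 119, 130.1, 113 and 112 CPM and Zic4 measured 131, 165, 92.2 and 142 CPM, both highest in CT2 in all 4 libraries, but CP3 reached 101 CPM for Zic1. Foxc1, a forkhead gene needed for skull and meninges, was at 89.4 ± 3.78 CPM in CT2 and 87.6 CPM in CP3. Aldh1a2, which makes retinoic acid, measured 127, 190.2, 127 and 128 CPM, with CP6 next at 105 CPM. Slc13a4, a sulfate transporter, was at 105 ± 16.8 CPM against 28.4 CPM in CP3. Lama1, a basement membrane laminin chain, was the member that was not above the other nuclei, at 40.3 ± 7.76 CPM against 577 CPM in CP3.

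Lists of cartilage, bone, tendon and muscle genes gave no member that was highest in CT2 in all 4 libraries. The share over the 7989 genes was 3.37%, so counts of 0 in lists this short lie near it. That count was 0 of 15 chondrocyte genes, 0 of 6 hypertrophic chondrocyte genes, 0 of 12 osteoblast genes, 0 of 8 osteoclast genes, 0 of 11 tendon and ligament genes and 0 of 7 skeletal muscle genes. Col2a1, the type II collagen gene of cartilage, measured 563, 297, 484 and 345 CPM, against 233 to 493 CPM in osteoclasts. WT 1 thus lay above the osteoclast range over the libraries, and the other libraries lay within it. Sox9 (25.8 ± 6.24 CPM), Acan (45.5 ± 9.52 CPM), Mmp13 (179.5 ± 59.0 CPM), Sp7 (40.5 ± 14.4 CPM), Bglap (237 ± 89.1 CPM) and Dmp1 (86.9 ± 38.9 CPM) had at least 1 CT2 library inside their osteoclast range as well. Alpl, the alkaline phosphatase gene of bone, was above its osteoclast range of 78.6 to 111 CPM in every CT2 library (154 ± 19.4 CPM), and so was the chondrocyte gene Sox5 (203 ± 25.9 CPM against 93.6 to 124 CPM), which was chosen after its values were seen. These ranges pool the libraries, while free RNA differs between them. The airway epithelium gene Bpifa1 was at 194 CPM in CT2 and 155 CPM in osteoclasts of WT 1, and higher in CT2 in every library. Osteoclasts can thus understate the background, and values above their range were not separated from free RNA. The osteoclast genes Acp5 (205 ± 73.2 CPM) and Ctsk (378 ± 93.5 CPM) were at 1356 and 4606 CPM in osteoclasts.

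Among the markers of other lineages that CT2 nuclei could have held, the endothelial, epithelium and adventitial lists summed to more in CT2 than in the other annotated nuclei. The 6 endothelial genes summed to 291 to 324 CPM in CT2, against 143 to 167 CPM in the other nuclei and 1015 to 1158 CPM in CP6. Cdh5, which encodes VE-cadherin, was at 126 ± 11.8 CPM and highest in CT2 in 4 of 4 libraries, while the endothelial gene Pecam1 was at 15.0 ± 5.08 CPM, within the osteoclast range of 9.95 to 22.1 CPM. The 4 epithelium genes summed to 148 to 163 CPM against 61.9 to 79.6 CPM, highest in CT2 in 2 libraries. Most of that sum was Cdh1 (124 ± 12.0 CPM, with CP2 next at 122 CPM), while the keratin genes Krt8 and Krt18 were at 3.33 and 3.30 CPM. The 15 types held no endothelial or epithelial class, so Cdh5 and Cdh1 were not compared with such cells. The 12 adventitial fibroblast genes summed to 867 to 1043 CPM against 422 to 708 CPM, below the 1963 to 2227 CPM of CT1, and 7 of them were above the other nuclei in all 4 libraries, beside 25.1% of the 7989 genes. The 7 Schwann cell genes summed to 177 to 449.8 CPM in CT2 and 136 to 310.0 CPM in the other nuclei, with CT2 highest of all types in 1 library. The part of cells of these lineages in the CT2 values was not tested. Gjb6, the connexin 30 gene, was at 150.3 ± 13.4 CPM and was the only one of 11 otic mesenchyme and fibrocyte genes highest in CT2 in all 4 libraries. Penk, the proenkephalin gene, was the only adventitial fibroblast gene to be so (61.0 ± 26.7 CPM), and Prg4, the lubricin gene of joint surfaces, the only one of 5 synovial genes (24.9 ± 6.39 CPM). No member of the periosteum, marrow stroma, pericyte, Schwann cell, immune, erythroid, neuron or epithelium lists was highest in CT2 in all 4 libraries (0 in each). The share over the 7989 genes was 3.37%, and counts of 0 or 1 in lists this short were not tested against it.

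Matrix genes were counted in the same way, beside 3.37% of the 7989 genes highest in CT2 and 25.1% above the other nuclei in all 4 libraries. Of 14 fibrillar and fibril-associated collagens 0 were highest in CT2 in all 4 libraries, and 4 were above the other nuclei in all 4. Their summed level was 7361 to 12804 CPM in CT2 and 12022 to 16212 CPM in the other nuclei, and the median log2 difference of the genes from the other nuclei was -0.45. Of 17 basement membrane genes 11 were above the other nuclei in all 4 libraries, and Col18a1, the type XVIII collagen gene, was highest in CT2 (57.3 ± 9.90 CPM). Of 10 glypicans and syndecans 1 was highest in CT2 in all 4 libraries and 3 were above the other nuclei in all 4. Their median log2 difference from the other nuclei was -0.30. Their summed level was highest in CT2 in 4 of 4 libraries (5099.5 to 5657 CPM, against 2700.4 to 2899.9 CPM in the other nuclei). Gpc6 made up most of that sum, at 3482, 4103, 4221 and 4014 CPM, so the sum rested largely on 1 gene. The small leucine-rich proteoglycans gave 0 of 11 genes highest in CT2 in all 4 libraries, and their member Dcn, the decorin gene, was at 774 ± 284 CPM. Fbln1, the fibulin 1 gene, was highest in CT2 among 18 elastic fibre genes (122 ± 10.2 CPM).

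Signalling genes highest in CT2 in all 4 libraries fell in the BMP, Wnt, IGF and retinoic acid lists, and the share over the 7989 genes was 3.37%. In the BMP and TGF-beta list there were 4 of 29. They were the ligands Bmp6 (529 ± 49.6 CPM, against 189.9 CPM in matured chondrocytes) and Bmp7 (71.7 ± 14.2 CPM), the co-receptor gene Tgfbr3 (492 ± 66.8 CPM) and the BMP target Id1 (75.6 ± 14.8 CPM). Of the 29, 6 were above the other nuclei in all 4 libraries, beside 25.1% of the 7989 genes, and the median log2 difference was -0.26. The 29 summed to 3328 to 3536 CPM in CT2, 2857 to 3041 CPM in the other nuclei and 3646 to 4023 CPM in osteoclasts. The Wnt list gave 2 of 34, the ligand Wnt4 (51.6 ± 18.6 CPM) and the secreted antagonist Sfrp4 (43.0 ± 10.8 CPM), and the IGF list gave 1 of 12, the binding protein gene Igfbp6 (32.8 ± 14.4 CPM). The retinoic acid list gave 3 of 18, Aldh1a2, the retinoid binding protein gene Crabp2 (12.0 ± 1.48 CPM) and the vitamin A receptor gene Stra6 (11.5 ± 3.74 CPM). Crabp2 and Stra6 are under the 20 CPM that the 7989 genes reached. In the Wnt, IGF and retinoic acid lists 15 of 34, 6 of 12 and 8 of 18 genes were above the other nuclei in all 4 libraries. The FGF, PDGF and hedgehog lists gave 0 of 18, 0 of 7 and 0 of 13.

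Among 58 mesenchymal transcription factors, 4 were highest in CT2 in all 4 libraries. The share over the 7989 genes was 3.37%, and the counts in this paragraph were not tested against it. Apart from Zic1 and Zic4 these were Foxp1, at 1843, 2242, 2153 and 1844 CPM with CT1 next at 993 CPM, and Foxd1, at 195, 273, 174 and 239 CPM with CT3 next at 118 CPM. Tcf21 had 0 UMIs in CT2. No Hox gene of 12 was at 20 CPM (0), and 6 had no UMI in CT2. S phase and G2/M lists gave 0 of 43 and 0 of 54 members highest in CT2 in all 4 libraries. Of the 36 measured genes syntenic to the 22q11.2 deletion 2 were highest in CT2 in all 4 libraries, beside 3.37% of the 7989 genes. They were Aifm3 and Serpind1 (14.9, 23.3, 11.3 and 14.3 CPM), and Gsc2 had 0 UMIs.

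The leading transporters were found in a part of the nuclei. After thinning each nucleus to 1000 UMIs, which left out 0 nuclei, Slc6a13 was detected in 17.3% to 32.8% of CT2 nuclei per library, against at most 0.312% of osteoclast nuclei and 0.301% of CT1 nuclei. Without thinning the CT2 share was 36.4% to 53.7%, at a median of 3752 to 4449 UMIs against 4963 to 7105 in osteoclasts. Slc47a1 was detected in 21.0% to 23.3% of thinned CT2 nuclei, with at most 0.879% in osteoclasts, and in 35.5% to 37.7% unthinned. Col3a1 was detected in 47.9% to 68.0% of thinned CT2 nuclei and in 9.52% to 37.7% of thinned osteoclasts, so the share for Col3a1 includes a background that Slc6a13 and Slc47a1 lacked.

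Slc6a13 and Slc47a1 were largely detected in different nuclei. Over all libraries 467 CT2 nuclei had a UMI of Slc6a13 and 404 had a UMI of Slc47a1, but 32 had both, and 76.4% of CT2 nuclei had at least 1 of them. Slc6a20a was detected in 63.6% of Slc6a13-positive nuclei and in 7.0% of the others. By contrast, it was detected in 6.4% of Slc47a1-positive nuclei and in 45.4% of the others. Slc4a10 was detected in 88.9% of Slc47a1-positive nuclei and in 18.4% of the others. In each single library the share of Slc47a1-positive nuclei with Slc6a20a was 4.0% to 8.0%, and that of the remaining nuclei was 35.3% to 58.1%. These shares are counts of nuclei, and a gene with no UMI in a nucleus may still have been transcribed there.

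Clustering of the CT2 nuclei alone gave 7 groups at resolution 0.5, which are numbered by size and described by their leading genes. Coarser and finer resolutions of 0.3 and 0.8 gave 5 and 11 groups. Genes named for a group were chosen after their values were seen, and since they defined the groups they carry no test. Levels are those of the group summed over the libraries, followed by the range over the libraries.

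Group 1 was the largest, with 329 nuclei and a similar share in every library (27.8% to 32%). It was led by Slc47a2, Prmt8, Slc47a1, Slc16a9 and Bmper, a secreted BMP regulator. Slc47a1 was at 981 CPM (843 to 1094), Slc4a10 at 2482 CPM (2224 to 2949.6) and Bmper at 1365 CPM (1207 to 1646). Slc6a13 stayed at 2.80 to 25.5 CPM and Slc6a20a at 10.4 to 24.9 CPM in this group.

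Group 2, with 285 nuclei, was led by the ion channel gene Asic2 and also by Hpca, Dlgap1, Col4a6 and Lama1. Gpc3 was higher here than in the other groups in every library, at 1293 CPM (1132 to 1418). Col3a1 was at 1729 CPM (1154 to 2444), the highest sum over the libraries, though group 5 was higher in WT 1 (2489 CPM). Slc6a13 was at 591 CPM (386 to 779) and Slc47a1 at 21.0 CPM. Bmp6 was at 1011 CPM, and Lama1, low in CT2 as a whole, was at 134 CPM (115 to 140.3). The group took 33.5% of CT2 in WT 1 but 15.7% in WT 2, and 26% and 28.6% in Tbx1+/- 1 and Tbx1+/- 2.

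Group 3, with 224 nuclei, was led by Atp13a5, Ppp1r1a and Slc6a20a. Ptgds was at 11781 CPM (7819 to 14365), against 989 CPM in the other CT2 nuclei. Slc6a20a was at 2174 CPM (1848 to 2317) and Slc6a13 at 926 CPM (802 to 1012). Both ends of retinoic acid turnover were among its genes, with the synthesis enzyme Aldh1a2 at 441 CPM (322 to 552) and the degrading enzyme Cyp26b1 at 111 CPM against 5.58 CPM in the other CT2 nuclei. Aifm3 was at 415 CPM against 35.9 CPM. Slc47a1 was at 6.43 CPM.

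Group 4, with 122 nuclei, was led by Gm6260, Prg4 and Gm26740. Prg4 was at 183 CPM (113 to 242), Cdh1, the E-cadherin gene, at 563 CPM (491 to 654), Dpp4 at 439 CPM (237 to 586) and the efflux pump gene Abcb1a at 249 CPM (229 to 278). Slc47a1 and Slc4a10 were also present, at 477 and 1823 CPM. The shares of this group were 9.93% to 12.0% of CT2 in the 4 libraries.

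The remaining groups were small. Group 5 (51 nuclei) was led by Tafa2 and Lmx1b, a LIM homeobox gene, and had Vcan at 1372 CPM and no UMI of Slc22a8 (0). It counted 13 nuclei in WT 1, 25 in WT 2, 10 in Tbx1+/- 1 and 3 in Tbx1+/- 2. Group 6 (44 nuclei) was led by genes of dividing cells such as Diaph3, Kif23 and Ckap2, with the topoisomerase gene Top2a at 797 CPM. Group 7 (43 nuclei) was led by 8030451A03Rik and Spock1 and had the osteoblast regulator gene Runx2 at 3699 CPM. Its nuclei held a median of 7070 UMIs, and 34.9% of them were among the 8% of annotated nuclei with the most UMIs, against 2.11% to 20.5% in the other groups. The part of nuclei captured together in group 7 was not tested.

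Foxc1, picked from the meningeal list, differed less between the groups than the other members given here. It lay between 67.1 and 104 CPM in all 7 groups. Foxc2 (21.3 to 50.9 CPM), Zic4 (51.8 to 224 CPM) and Alcam (695 to 2145 CPM) also varied moderately. Aldh1a2 (6.71 to 441 CPM), Lama1 (0 to 134 CPM) and Ptgds (205 to 11781 CPM) varied widely. So did the transporter members Slc6a13 (6.71 to 926 CPM), Slc47a1 (6.43 to 981 CPM), Slc22a8 (0 to 342 CPM), Slc22a6 (0 to 176 CPM) and Slc13a4 (3.36 to 269 CPM). Slc6a20a ranged from 13.4 to 2174 CPM, but it led group 3, so the clustering itself set part of that spread.

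**Figure D2:**
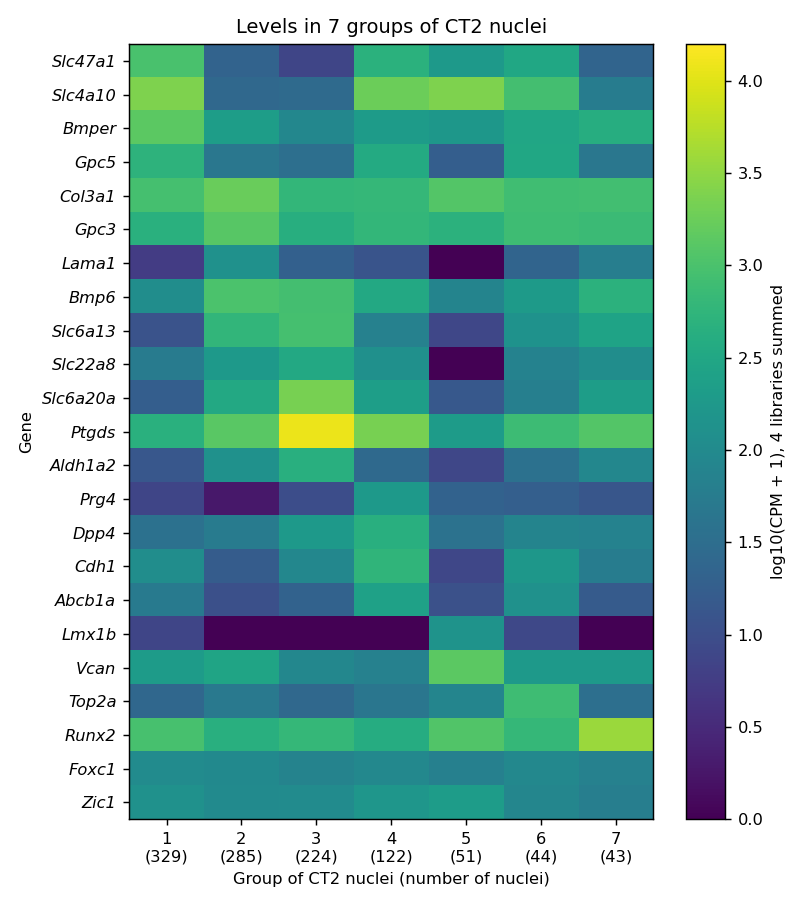
Heat map of 23 genes (rows) in the 7 groups of CT2 nuclei (columns, with the number of nuclei), as log10 of CPM plus 1 with the 4 libraries summed. Slc47a1 and Slc4a10 are bright in groups 1 and 4 and dark in groups 2 and 3, where Slc6a13 is bright. Foxc1 and Zic1 vary less along their rows than these genes do.

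A larger share of the genes highest in CT2 than of all genes was also highest in the meningeal nuclei of the other tissue. The PF/F annotation holds 706 nuclei called Meningeal. Of the 269 genes highest in CT2 among PTB types, 57 (21.2%) were highest in Meningeal among PF/F types in all 4 PF/F libraries, against 242 (3.03%) of the 7989 genes. Of the 25 leading genes 10 (40%) were so. Such shares were not taken for genes highest in the other CT classes, so the overlap is not shown to be particular to CT2. By contrast, a smaller share reached 20 CPM in PF/F Meningeal nuclei, with 224 (83.3%) of the 269 genes and 19 (76%) of the leading genes against 7251 (90.8%) of the 7989. Mean levels in PF/F Meningeal nuclei were 665 CPM for Slc6a20a, 696 CPM for Slc6a13, 249 CPM for Slc22a8 and 868 CPM for Bmp6. Slc47a1 averaged 58.0 CPM and Slc4a10 357 CPM there, below the CT2 means of 364 and 1082 CPM, and Vtn averaged 252 CPM, above the CT2 mean of 66.1 CPM. PTB and PF/F nuclei are in separate libraries, so these levels are set side by side without a test.

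Profiles were compared across the genes at a mean of 20 CPM or more in CT2 or in PF/F Meningeal nuclei. Spearman's rho across 9289 genes was 0.933 to 0.961 between CT2 sums of different libraries. With other PTB types of the same library the mean rho was highest for CP4 (0.890). CP3 (0.876), CP2 (0.875) and CP6 (0.870) also came before CT1 (0.868), while CT3 was at 0.835 and CT4 at 0.819. Mean rho was lowest for osteoclasts (0.748, range 0.729 to 0.772). With PF/F types, over pairs of different libraries, it was 0.733 for Meningeal (0.699 to 0.765), which overlapped the range of osteoclasts, and 0.568 for the next type, endothelial nuclei. Genes are not independent, PTB types of a library share its free RNA, and tissues differ in library and depth, so the values describe these sums.

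The share of CT2 did not differ between genotypes beyond the spread of the libraries. CT2 made up 2.73% (95% Wilson interval 2.42 to 3.06) of annotated nuclei in WT 1, 4.46% (3.97 to 5.02) in WT 2, 3.45% (3.08 to 3.85) in Tbx1+/- 1 and 4.04% (3.58 to 4.55) in Tbx1+/- 2. Both Tbx1+/- libraries lay between the WT libraries. The log2 difference, Tbx1+/- minus WT, was 0.06 (SE 0.31, adjusted p = 0.921 by edgeR's quasi-likelihood test on nuclei counts of 15 types), and 0 types passed a false discovery rate of 0.1. Without WT 1 the difference was -0.25 and without Tbx1+/- 2 it was -0.06. As a share of CT nuclei, CT2 was 13.3%, 25.4%, 19.3% and 33.4%, beside CT1 counts of 1315, 332, 878 and 118 nuclei. That share was higher in Tbx1+/- than in the WT library of the same number in both cases, at a log2 difference of 0.45 (SE 0.80, edgeR adjusted p = 0.892). The intervals cover counting error only, and nuclei counts per library also depend on the dissection, whose part was not tested.

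**Figure D3:**
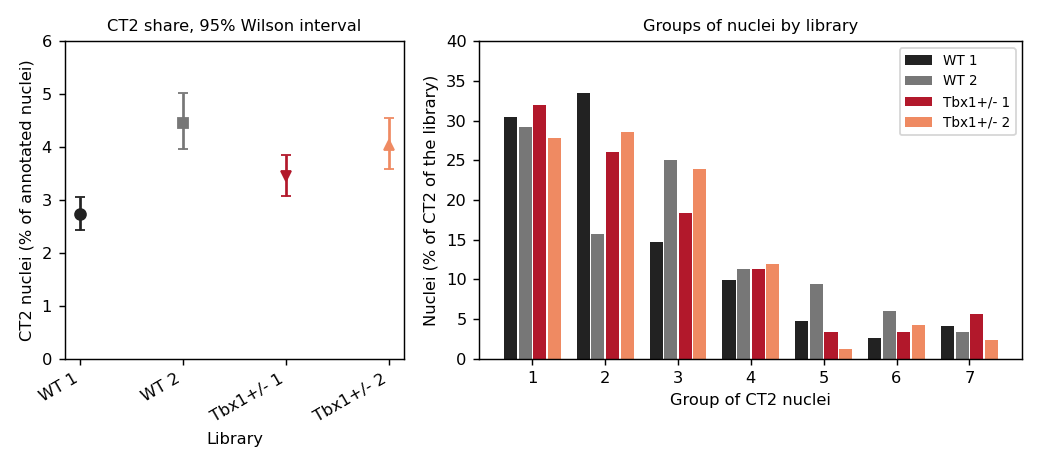
Left, CT2 nuclei as a percentage of annotated nuclei in each PTB library, with 95% Wilson intervals. Right, share of each library's CT2 nuclei in the 7 groups, as bars. Both Tbx1+/- shares lie between those of WT 1 (2.73%) and WT 2 (4.46%), and group 5 takes 9.36% of CT2 in WT 2 and 1.16% in Tbx1+/- 2.

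Tbx1 itself was low in CT2. It had 23 UMIs in WT 1, 24 in WT 2, 18 in Tbx1+/- 1 and 32 in Tbx1+/- 2, or 19.1, 17.0, 12.7 and 24.1 CPM. Exact Poisson 95% intervals were 12.1 to 28.6, 10.9 to 25.3, 7.51 to 20.0 and 16.5 to 34.1 CPM, and they overlapped. Osteoclasts gave 11.7, 15.5, 6.99 and 10.7 CPM, lower than CT2 in each library, with Poisson intervals that overlapped those of CT2 in all but Tbx1+/- 2. The 6 CP classes together gave 53.1, 61.2, 38.4 and 51.3 CPM. The other annotated nuclei measured 39.5 and 40.4 CPM in the WT libraries and 26.8 and 36.1 CPM in the Tbx1+/- libraries, lower in both. In CT2 the log2 difference was 0.02 (SE 0.40, edgeR adjusted p = 1.00), and it was -0.52 without Tbx1+/- 2, so at this depth a genotype difference of Tbx1 was not resolved in CT2.

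No gene was called between genotypes in CT2. A call required an adjusted p under 0.05 by edgeR's quasi-likelihood test and a change of more than 1.5-fold, and 0 of 12085 genes tested met it (0%). At an unadjusted p under 0.05 there were 231 genes, which is 1.91% of those tested, 89 of them with a higher and 142 with a lower value in Tbx1+/-. DESeq2 called 0 genes and had 51 at an unadjusted p under 0.05. With the replicate number as a block 1 gene was called, Bpifa1, an airway epithelium gene, at 194, 56.6, 61.2 and 4.53 CPM in CT2. The other annotated nuclei held it at 178, 75.0, 57.4 and 4.01 CPM, so its CT2 level followed that of the library. Without WT 1, 6 genes were called, and leaving out any other library gave 0. With 2 libraries a genotype, an exact permutation test of a single value cannot give a two-sided p below 0.333.

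The 10 genes with the smallest unadjusted p and the same direction for both replicate numbers are given as values that did not pass the test. The genotype ranges of each did not overlap, as held for 3207 of the 12085 genes (26.5%). Rasgrf1, a Ras exchange factor gene, measured 7.47 and 4.95 CPM in WT and 21.8 and 18.1 CPM in Tbx1+/- (log2 difference 1.68, SE 0.42, edgeR adjusted p = 1.00). Its WT values rested on 9 and 7 UMIs, near the filter on low counts. Tbc1d8 measured 29.9 and 33.2 CPM in WT and 54.2 and 65.6 CPM in Tbx1+/- (0.91, SE 0.24). The other 8 had lower values in Tbx1+/-. Their log2 differences were -1.56 for Il33, the alarmin gene, -1.41 for Hs3st5, a heparan sulfate sulfotransferase gene, -1.24 for Dner, a Notch ligand gene, and -1.32 for Pamr1. They were -0.99 for Sgcz, -0.81 for the Wnt agonist gene Rspo2, -0.74 for Creb5 and -0.67 for Plagl1, and the adjusted p of all 10 was 1.00 by edgeR.

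Some of these genes were high in group 5, whose nuclei numbered 13 and 25 in the WT libraries and 10 and 3 in the Tbx1+/- libraries. Il33 was among the leading genes of that group, and leaving the group out was chosen after seeing the data. For such genes a smaller ratio without the group was largely fixed in advance. Il33 measured 25.7 and 33.9 CPM in WT and 13.4 and 6.79 CPM in Tbx1+/-, from 31, 48, 19 and 9 UMIs, and 45 of these UMIs came from group 5. Within group 5 Il33 was at 157 and 212 CPM in WT and at 31.3 and 0 CPM in Tbx1+/-. Without that group the log2 ratio of the mean levels was -0.64 for Il33, where it had been -1.57, and -0.97 for Hs3st5, where it had been -1.39. For Rspo2 it was -0.48 against -0.80. Vcan, with values of 308, 291, 229 and 143 CPM, had a ratio of -0.69 with group 5 and -0.35 without it. Rasgrf1 (1.68 and 1.84), Pamr1 (-1.32 and -1.30) and Creb5 (-0.73 and -0.78) kept their size. Dner (-1.23 and -0.93), Sgcz (-0.99 and -0.82), Plagl1 (-0.66 and -0.46) and Tbc1d8 (0.93 and 0.83) had smaller ratios without group 5. The part of group 5 in these values was not tested. Without the group 0 of 11904 genes were called and 205 were at an unadjusted p under 0.05.

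**Figure D4:**
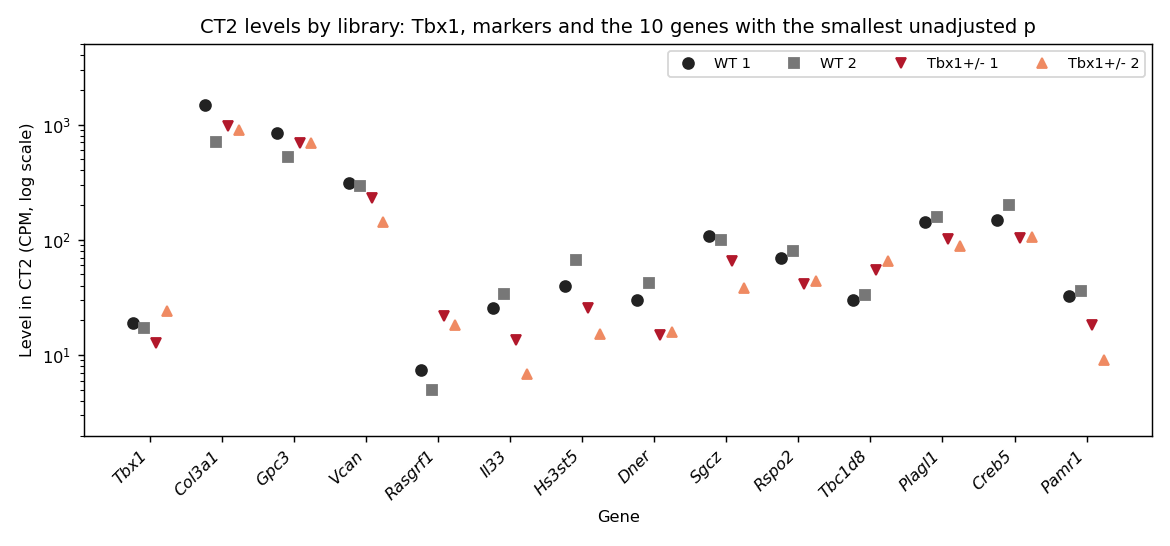
CT2 levels in CPM on a log axis of Tbx1, the CT markers and the 10 genes with the smallest unadjusted p, with 1 symbol per library. The ranges of the genotypes overlap for Tbx1, Col3a1 and Gpc3, and the 2 Tbx1+/- symbols of Rasgrf1 and Tbc1d8 lie above both WT symbols.

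The genes that characterise CT2 did not pass the genotype test. Of the 25 leading genes 25 were tested and 0 were called, 16 with higher and 9 with lower values in Tbx1+/-, at a median log2 difference of 0.17 against -0.01 over all genes. The ranges of 8 of the 25 did not overlap (32%), beside 26.5% of all genes. The 3 with an unadjusted p under 0.05 were Ankfn1 (0.49), Mro (0.78) and Kcnt1 (0.62). The 14 meningeal fibroblast genes had a median of 0.02, with 0 called. Col3a1 differed by -0.23 (SE 0.31) and Gpc3 by 0.01 (SE 0.24), and without WT 1 the value of Col3a1 was 0.40.

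No list had a called gene (0 in each). The 14 fibrillar and fibril-associated collagens had 1 higher and 13 lower values in Tbx1+/- at a median of -0.22, and their summed level was highest in WT 1 (12804 CPM) and lowest in WT 2 (7361 CPM). Of the 54 G2/M genes 47 were tested, with 9 higher and 38 lower values and a median of -0.27, and the genotype ranges of 19 of them (40.4%) did not overlap. The S phase list went the other way. Of its 43 genes 31 were tested, with 18 higher and 13 lower values and a median of 0.09, and 4 (12.9%) did not overlap. Over all 12085 genes tested there were 5715 higher and 6370 lower values, the median was -0.01 and the ranges of 26.5% did not overlap. Group 6, the group of dividing nuclei, counted 7 and 16 nuclei in WT and 10 and 11 in Tbx1+/-. The 29 tested genes syntenic to the 22q11.2 deletion had a median of 0.04.

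Other properties of the libraries moved between them as well. Xist, expressed in female cells, was at 445 and 1168 CPM in WT 1 and WT 2 and 688 and 1318 CPM in Tbx1+/- 1 and Tbx1+/- 2, and 4 Y-linked genes summed to 469, 277, 342 and 192 CPM. The replicate 2 libraries had the higher Xist and the lower Y-linked sum in both genotypes. Skeletal muscle genes summed to 453, 70.7, 308 and 45.3 CPM in CT2 and erythroid genes to 793, 548, 859 and 599.7 CPM, higher in the replicate 1 libraries. Of 10 immediate early and heat shock genes 5 were tested, with 4 higher values in Tbx1+/- and a median log2 difference of 0.85. The ranges of 4 of these 5 (80%) did not overlap, beside 26.5% of all genes, and 1, Ier2, had an unadjusted p under 0.05, from 6, 6, 15 and 20 UMIs. The filter on low counts can admit a gene through its values in 1 genotype alone, as it did for Ier2. With so few genes tested, these counts can come from that filter. The part of sex, muscle and erythroid RNA and of these response genes in the genotype values was not tested.

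The genotype difference in CT2 was compared with that in other cells by a test of the difference itself. Against the other CT types 0 of 13929 genes were called at an adjusted p under 0.05 by edgeR (0%). Without adjustment 326 genes had a p under 0.05 by edgeR and 32 by DESeq2, which also called 0. Without Tbx1+/- 1 the count was 13. Against all other annotated nuclei 0 of 19914 genes were called (0%), by DESeq2 too (0), and the unadjusted p was under 0.05 for 770 genes by edgeR and 194 by DESeq2. The filter on low counts took both sums, so a gene could enter through the other nuclei with few UMIs in CT2. In the CT2 sums alone 12085 genes passed it. With the replicate number as a block the count against all other nuclei was 40, and it was 7 to 56 with 1 library left out, highest without WT 1. That count was 2 with nuclei of at least 2000 genes and 3 without the nuclei with the most UMIs. The count thus moved with the block, the libraries and the nuclei that entered, and these fits do not settle whether any gene had a genotype difference particular to CT2.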

How the data were processed

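Nuclei of PTB and PF/F were captured by droplets, and the authors counted UMIs with Cell Ranger 7.0.0 against mouse build mm10, per the labels. The deposited matrices hold raw counts per gene and barcode without normalization, at 44713226 to 88677309 UMIs per library. The study's methods describe a correction for ambient RNA (SoupX) and filters on genes, UMIs and mitochondrial reads, and the deposited annotation gives 31076 of the PTB nuclei a cell type; the correction is not in the raw counts used here. The embedding scores deposited beside the cell types were not used. Cell types were those of the annotation, with no further filter on nuclei. No doublet caller is described in the methods used here and none was run, and an alternative left out the 8% of nuclei with the most UMIs.

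UMIs were summed per library and type. WT and Tbx1+/- sums were compared by edgeR 4.0.16 in R 4.3.3 (filterByExpr, TMM factors, glmQLFit and glmQLFTest, Benjamini-Hochberg adjustment over all genes tested), with DESeq2 1.42.0 as an alternative. Interaction fits compared the genotype difference of CT2 with that of the other CT types or of all other annotated nuclei. Standard errors are the log2 difference divided by the root of F. Abundance used the same test on nuclei counts. For groups within CT2, counts were scaled to 5000 UMIs, and 1500 variable genes, 15 principal components and 15 neighbours entered Leiden clustering (leidenalg 0.10.2). Promoter and protein sequences were not used here.

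The replicate numbers of the labels were read as the 2 batches of animals that the study describes. The labels do not state that same-numbered WT and Tbx1+/- pools shared a batch. Over 12085 genes, same-numbered CT2 sums deviated together from their genotype means (correlation 0.24, across genes that are not independent), so fits with the replicate number as a block stand beside the results they change. P-values measure the spread between 2 pools a genotype. The named genes were Tbx1, the markers the study shows for PTB types, the 25 leading genes, the 10 genes of smallest p with the same direction for both replicate numbers, and list members highest in CT2. The members and lists were chosen with earlier results of these data known. The settings varied were the scaling (RLE factors), the low-count filter (none), the tool (DESeq2), the block, nuclei with at least 2000 genes, no top UMI nuclei, each library left out and, chosen after seeing the data, CT2 without group 5.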

Additional observations from a re-analysis of the deposited data

How the results depend on the processing

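Of 207 alternative values for 20 results, 186 were unchanged, 14 had more genes called or newly passed a threshold, and 7 changed sign. Unchanged meant the same direction and side of the threshold for a difference, a similar count of genes, or a level within 1 SD. Of the 186, 148 belonged to 14 single genes that did not pass in the main fit, so most of them were likely to stay on that side. The log2 difference in the share of CT2 was -0.25 to 0.46 with 1 library left out, below 0 without WT 1 (-0.25) and without Tbx1+/- 2 (-0.06). The count of genes called between genotypes in CT2 was 8 with no filter on low counts, 1 with the replicate block and 0 to 6 with 1 library left out, 6 being without WT 1. For the comparison with the other CT types the count was 6 with no filter and 0 to 13 with 1 library left out, 13 being without Tbx1+/- 1, and the replicate block left it at 0. For the comparison with all other nuclei it was 28 with no filter, 40 with the replicate block, 2 with nuclei of at least 2000 genes, 3 without the nuclei with the most UMIs and 7 to 56 with 1 library left out. The cause of these changes was not tested. With 1 library left out, the difference of Tbx1 was -0.52 to 0.43, that of Col3a1 -0.64 to 0.40 and that of Gpc3 -0.27 to 0.39, and Tbx1 was at -0.12 without group 5. Hs3st5 passed with no filter on low counts (log2 difference -1.38, edgeR adjusted p = 0.025), and its adjusted p was 0.025 to 1.00 over 11 alternatives. A genotype left with 1 library was assumed to vary like the other genotype. With 2 libraries a genotype and 18 to 32 Tbx1 UMIs per library in CT2, small differences could have been missed.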
